A study of Mus musculus with 55 samples.

Results

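TFIID and Mediator are the large protein complexes that bring RNA polymerase II to gene promoters, and the genes of their subunits were followed here in single pyramidal neurons from the prefrontal cortex of mice. The members were all gene symbols in the deposited count table that consist of Taf or Med, a number and at most 1 further letter. This rule found 53 of 22800 symbols, 23 of them Taf genes and 30 Med genes. Because the rule works on names, it also takes in 4 subunits of SL1, the TBP complex of RNA polymerase I (Taf1a, Taf1b, Taf1c and Taf1d), 2 paralogs that belong to the coactivator SAGA (Taf5l and Taf6l), and Taf15, an RNA-binding protein of the FET family. The remaining 16 Taf genes encode subunits of TFIID or their close paralogs. The set was picked out with Taf2 in view, which had the largest stable difference in knockout D1 cells. The values of Taf2 in D1 cells, with and without the knockout, are therefore a description and support nothing further.

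Each library was made from the cytosol of 1 neuron, drawn through a patch pipette. By their labels the neurons are of the D1 or the D2 kind, names of dopamine receptor types, and come either from mice with no knockout, called wild-type here, or from Fmr1-/y mice. These mice carry a knockout of the X-linked gene Fmr1, whose RNA-binding product FMRP is lost in fragile X syndrome. The wild-type cells were 15 D1 cells from mice aged 28 to 34 days and 26 D2 cells from 29 to 35 days. The knockout cells were 6 D1 cells from 31 and 32 days and 7 D2 cells from 32 days. One further knockout D1 cell failed quality control per the labels and entered no comparison. The sources used here do not say how D1 and D2 cells were told apart, which strain was used or which animal each cell came from. With no animal named for any cell, each group was treated as 1 sample, no test was made, and all differences describe these cells. A label called side is 2 in all D1 and 1 in all D2 cells, so side and kind of cell cannot be told apart.

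TFIID consists of the TATA-binding protein TBP and its associated factors, the TAFs, and recognises core promoter DNA around the start of transcription. Many TAFs pair through histone-fold domains, among them TAF6 with TAF9, TAF8 or TAF3 with TAF10, TAF4 with TAF12, and TAF11 with TAF13. TAF1 and TAF2 contact DNA at and downstream of the start site, and TAF2 enters the complex through TAF8. Mediator passes signals from DNA-bound activators to RNA polymerase II. Its head and middle modules contact the polymerase machinery, its tail contacts activators, MED14 runs through the complex as a scaffold, and a separable kinase module holds MED12, MED13, CDK8 and cyclin C.

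The promoters of 46 of the 53 members were found in the RefSeq table of the GRCm38.p6 build, which spans 250 bases before to 50 bases after each start. Those of Taf1, Med27, Taf13 and Med28 are shown here, 120 bases before the start. They are examples of members on the higher and the lower side of the knockout comparison in D1 cells below. Capitals mark the TATA box core TATAAA, the CCAAT box core CCAAT, which reads ATTGG on the opposite strand, and the ETS factor core, spelled CCGGAAG. The Taf1 stretch lies at chrX:101532614-101532733 on the plus strand, that of Med27 at chr2:29346690-29346809 (plus), that of Taf13 at chr3:108571578-108571697 (plus) and that of Med28 at chr5:45520109-45520228 (plus).
Taf1: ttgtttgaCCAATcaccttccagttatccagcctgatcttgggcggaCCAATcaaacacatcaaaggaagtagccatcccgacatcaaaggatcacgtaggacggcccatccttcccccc
Med27: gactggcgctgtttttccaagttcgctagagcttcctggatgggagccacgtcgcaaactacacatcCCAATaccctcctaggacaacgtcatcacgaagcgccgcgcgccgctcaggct
Taf13: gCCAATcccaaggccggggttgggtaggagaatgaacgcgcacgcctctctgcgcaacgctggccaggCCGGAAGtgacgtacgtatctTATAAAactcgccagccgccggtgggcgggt
Med28: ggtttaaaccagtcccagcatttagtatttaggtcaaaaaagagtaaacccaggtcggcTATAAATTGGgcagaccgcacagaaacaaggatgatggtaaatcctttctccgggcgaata

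The Taf13 and Med28 stretches both held TATAAA, while those of Taf1 and Med27 did not. Whether this motif goes with the direction of a difference was not tested, and examples chosen by their side cannot show it. Over the full windows and both strands, TATAAA was found in 8 of the 46 member promoters (17.4%), against 15.7% of the 27025 promoters in the table. CCAAT was found in 18 (39.1%, against 41.1%). CCGGAAG was found in 17 (37%, against 9.93% of all promoters and 12.9% of those of protein-coding genes), among them Taf1, Taf13, Med15, Med14 and Med17. The YY1 core AAGATGG was found in 9 (19.6%, against 7.28%), and the palindromic NRF1 core in 0 (against 1.07%). These matches are descriptions of sequence, and no factor was measured.

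The libraries of the 54 cells that passed held 260943 to 10673072 counts. They fell into cells with many and with few genes read: at least 4000 genes were read in 9 of the 15 wild-type D1 cells and 13 of the 26 D2 cells, and in all 6 D1 and 6 of 7 D2 cells of the knockout. Cells with at least 4000 genes are called gene-rich. The knockout groups thus hold a larger share of gene-rich cells, and each comparison with wild-type cells is also given over gene-rich cells alone. Fmr1, the targeted gene, had reads in 8 of 15 and 13 of 26 wild-type cells and in 0 of 6 and 0 of 7 knockout cells (upper 95% Clopper-Pearson limits of 45.9% and 41% of cells). The 8 pyramidal neuron markers summed to 128 CPM (counts scaled to a common library total) or more in every cell. The 10 microglial markers had reads in 24 of 26 wild-type D2 cells and in each cell of the other groups, with median summed CPM of 696 (D1) and 551 (D2) in the wild type and 415 (D1) and 249 (D2) in the knockout. For the 8 astrocyte markers these medians were 866, 769, 546 and 675, for the 8 oligodendrocyte markers 338, 583, 393 and 1062, and for the 7 interneuron markers 0.398, 9.35, 0 and 44.1. The part of this RNA in the results was not tested.

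Detection varied widely between members. None had reads in all 54 cells, 18 were read in more than 27 cells, and the median member was read in 25 cells. Cells with many genes held many members: the number of members with a read ran from 12 to 44 in the 34 gene-rich cells and from 4 to 13 in the other 20. Within the gene-rich cells this number went with the number of genes read (Pearson's r 0.876, Spearman's rho 0.836 over 34 cells, both counted from the same libraries). In the wild type the lowest, median and highest numbers of members were 5, 24 and 38 for D1 cells and 4, 19 and 44 for D2 cells. In the knockout they were 23, 27.5 and 37 for D1 cells and 6, 29 and 39 for D2 cells. The single knockout D2 cell with 6 members was cell 5, the only one of that group that was not gene-rich (cell numbers follow the order of listing and are names only).

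**Figure D1:**
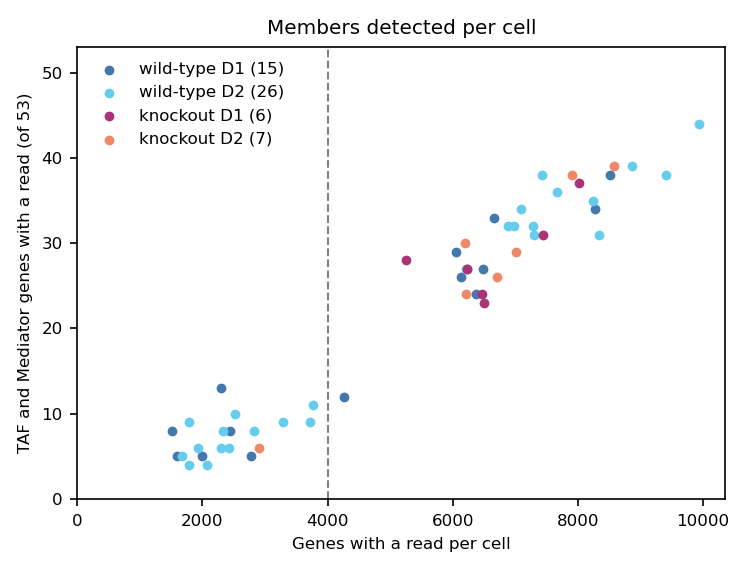
Members with at least 1 read (vertical axis, of 53) against all genes with at least 1 read (horizontal axis) in each of 54 cells, coloured by group; the dashed line marks 4000 genes. The cells left of the line have 4 to 13 members and those right of it 12 to 44, and 12 of the 13 knockout cells lie to the right.

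Taf5, a WD40-repeat subunit at the core of TFIID, was read in the most cells, 41 of 54, but its median over all cells was only 1.22 CPM. Taf10 followed with 38 cells, Med13l and Med24 with 36 each, and Taf9 with 35. Per kilobase of exon, mean levels over the 54 cells were highest for Taf9 (39.7 ± 43.3 CPM per kb, SD), Med31 (37.8 ± 62.5), Med9 (28.8 ± 74), Med30 (28.0 ± 70.9) and Med28 (27.2 ± 57.4). The SDs exceed the means, so the order among these 5 is not larger than the spread between cells. The least often read were Taf4b, a paralog of Taf4 known from the gonads, in 3 cells, and Med18 of the head module and Taf7l, a germ-cell paralog of Taf7, in 5 each.

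Some members share exons with other genes, so their reads cannot be assigned with certainty, and whether counting used strand is not given. In the GENCODE vM21 annotation 26 of the 53 members share exon bases with another gene, and 14 share more than 10% of theirs. Taf10 shares 2106 of 4584 exon bases with Ilk, and the 38 cells with Taf10 reads were the same 38 cells that had Ilk reads. Taf9 shares 1564 of 2120 bases with Ak6, the adenylate kinase encoded at the same locus. All 35 cells with Taf9 reads had Ak6 reads too, out of 38 with Ak6. Taf6 and Ap4m1 were read together in 21 cells, of 25 with Taf6 and 22 with Ap4m1. Med12l, which holds the microglial gene P2ry12 within its bounds, shared only 9 of its 26 cells with the 17 that had P2ry12 reads. Taf2, Taf1, Taf13 and Med28 share no exon bases with another gene.

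**Figure D2:**
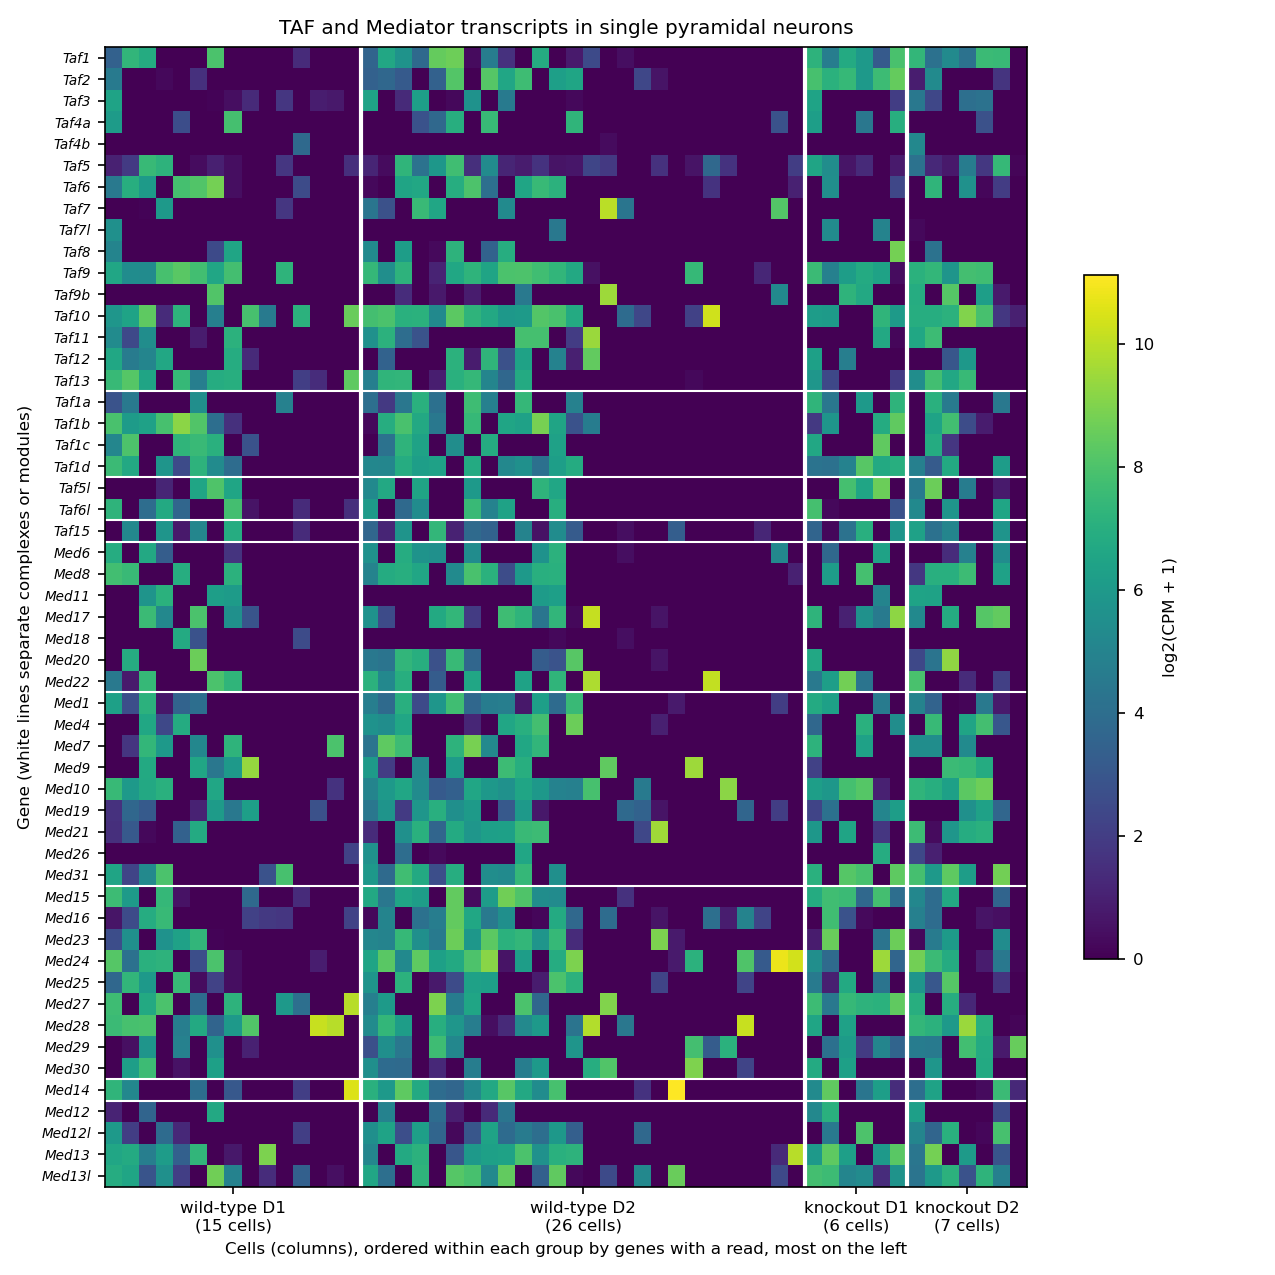
Level of each of 53 members (rows, grouped from top to bottom as TFIID, SL1, SAGA-type paralogs, Taf15, and Mediator head, middle, tail, scaffold and kinase module) in each of 54 cells (columns, by group and then by genes read), as log2(CPM + 1). Most fields are at 0, the right side of each wild-type block holds few members, and the row of Taf2 is filled in all 6 knockout D1 cells.

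Taf2 (ENSMUSG00000037343, chr15:55015131-55072152 on the minus strand of GRCm38) was read in each of the 6 knockout D1 cells. Its lowest, median and highest values there were 62.1, 187 and 357 CPM. In wild-type D1 cells it was read in 3 of 15 (20%, interval 4.33 to 48.1%), with a median of 0 and a highest value of 22.4 CPM. Every knockout D1 cell thus lay above every wild-type D1 cell. Only 3 of 10792 measured genes (0.0278%) were ordered that way in this comparison, Taf2 among them, and because Taf2 was chosen for this difference nothing is read from it.

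In knockout D2 cells Taf2 was read in 3 of 7, at a median of 0 and a highest value of 38.3 CPM, below every knockout D1 cell. Between the knockout groups 12 of 10990 genes (0.109%) were ordered in that way. The knockout D1 values are the same ones for which Taf2 was chosen, so nothing is read from this order either. Wild-type D2 cells overlapped with knockout D1 cells: 12 of 26 had Taf2 reads, the median was 0 and the highest value 287 CPM. Mean levels in the wild type were 1.64 ± 5.77 CPM (SD over 15 D1 cells) and 41.5 ± 85.1 CPM (26 D2 cells). In the knockout they were 194 ± 98.9 CPM (6 D1 cells) and 5.90 ± 14.3 CPM (7 D2 cells). Within wild-type cells Taf2 was thus lower in D1 than in D2 cells, the opposite order to that in knockout cells. The wild-type D1 values also entered the difference for which Taf2 was chosen, so nothing is read from this opposite order.

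**Figure D3:**
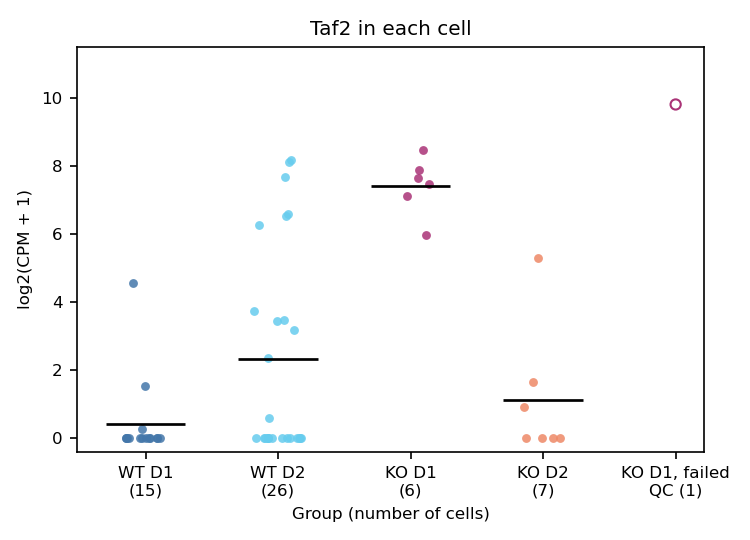
Taf2 in each cell as log2(CPM + 1), by group, with black lines at group means; the open circle is the 1 knockout D1 cell labelled as failing quality control. The 6 knockout D1 cells lie above all wild-type D1 and knockout D2 cells, and wild-type D2 cells spread from 0 to 287 CPM.

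As a difference of mean log2(CPM + 1), the scale of all differences below, Taf2 was 7.00 higher in knockout than in wild-type D1 cells, the highest of all 10792 measured genes. It was 6.72 higher among gene-rich cells, and 6.79 to 7.30 higher when each cell was left out in turn. With a pseudocount of 10 CPM in place of 1 it was 4.06 higher. In D2 cells the knockout difference was -1.19, and -3.09 among gene-rich cells. Knockout D1 cells exceeded knockout D2 cells by 6.30. This scale weights each cell equally and can exceed the log2 ratio of mean CPM where cells without reads are more frequent on one side.

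In D1 cells most genes were higher in the knockout: the median of all measured genes was 0.98 and 74.7% were above 0. The members followed, with 39 of 51 measured above 0 and a median of 1.18, also with members without a read in 1 group set at their bound. At least 2 log2 units higher were 15 members, where 27.6% of all genes were, and the share among members is near that background. At least 2 lower were 2 members, Med28 and Taf13, where 1.34% of all genes were. Among gene-rich cells the members' median was 0.31 (all genes 0.14), with 7 higher and 4 lower, where 12.1% and 8.11% of all genes were. The general difference between the groups is thus much smaller among gene-rich cells.

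TFIID genes contributed 2 of the 15, Taf2 and Taf1, out of 15 measured with a median of 0.63. Taf1 encodes the largest subunit, which carries bromodomains. Its lowest, median and highest CPM were 7.83, 85.1 and 241 in knockout D1 cells, all 6 with reads, and 0, 0 and 248 in wild-type D1 cells, 5 of 15 with reads. The ranges overlap, and the highest wild-type value lies above the highest knockout value. The difference was 4.15 (3.11 in gene-rich cells, 3.76 with knockout cell 5 left out, 2.36 with cells of 31 and 32 days only). By summed counts it was only 0.52, from 111 against 76.7 CPM. Taf4a, listed as Taf4 in GENCODE, was just below the threshold at 1.83.

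Taf13, which pairs with TAF11 near TBP, was lower. Its lowest, median and highest CPM were 0, 1.36 and 56.4 in knockout D1 cells and 0, 26.0 and 330 in wild-type D1 cells, with reads in 3 of 6 and 10 of 15. The ranges overlap and both groups hold cells without reads. The difference was -2.32, -3.67 in gene-rich cells, -6.33 with cells of 31 and 32 days only and -1.98 with knockout cell 1 left out. Taf6, a histone-fold subunit, followed at -1.70, just short of the threshold. Taf7, which binds TAF1, was read in 3 of the 15 wild-type and in 0 of the 6 knockout D1 cells. Of its 326 wild-type D1 counts 324 came from cell 13, so no fold is given. The exact upper limit for a share of 0 of 6 cells is 45.9%, so presence in a minority of cells was not detectable with this number.

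Of the 4 SL1 genes, Taf1d (3.27) and Taf1a (2.98) were past 2. Taf1d had reads in 6 of 6 knockout and 7 of 15 wild-type D1 cells, with medians of 68.3 and 0 CPM. Taf1a had reads in 4 of 6 and 4 of 15, with medians of 42.1 and 0 CPM. Among gene-rich cells Taf1a kept a difference of 2.74 while Taf1d had 1.53, and with cells of 31 and 32 days only they had 1.72 and 1.13. Taf15 was 1.80 higher, read in 5 of 6 and 6 of 15 cells. Of the SAGA-type paralogs Taf5l was 2.35 higher, but 1.39 with knockout cell 1 left out.

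Mediator genes contributed 10 of the 15, with a median of 1.28 over 29 measured. In the tail, Med15, a subunit that binds many activators, had a lowest, median and highest CPM of 12.4, 151 and 221 in knockout D1 cells, all 6 with reads. In wild-type D1 cells the values were 0, 0 and 195, with 6 of 15 read. The difference was 4.49, and 3.45 in gene-rich cells. Med27, at the junction of tail and head, ran from 20.7 to 335 with a median of 159 CPM in knockout D1 cells, and from 0 to 973 with a median of 14.2 in wild-type D1 cells, 8 of 15 with reads. Its difference was 3.47 (3.31 gene-rich), with the single highest value in a wild-type cell. Both were smaller by summed counts (Med15 1.49, Med27 1.00) and with cells of 31 and 32 days only (1.71 and 1.18), where 3 wild-type D1 cells remain.

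Med28 went the other way. It was read in 2 of 6 knockout D1 cells, at 91.5 and 82.4 CPM, and in 10 of 15 wild-type D1 cells, with a median of 61.2 and a highest value of 1166 CPM. The difference was -2.69, and between -3.57 and -2.26 with each cell left out. Med9 of the middle module, with reads in 1 of 6 knockout and 5 of 15 wild-type D1 cells, was next at -1.86. In the middle module Med31 was 3.07 higher, read in 4 of 6 cells at a median of 183 CPM against 6 of 15 at a median of 0, and Med10 was 2.49 higher (1.83 without knockout cell 3).

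In the head, Med17, a core subunit, was 2.66 higher and Med22 2.09 higher, falling to 1.73 and 1.14 without knockout cells 5 and 6. The scaffold gene Med14 was 2.14 higher, but 1.32 without knockout cell 4, and it turned to -3.38 with cells of 31 and 32 days only. In the kinase module Med13 (2.83) and Med13l (2.64) were higher, at medians of 69.8 and 46.3 CPM in knockout against 0.638 and 3.24 CPM in wild-type D1 cells. Both were below 2 among gene-rich cells (Med13 at 1.84), and Med13l was at -0.33 when counts were summed over each group. The last of the 10, Med29 of the tail, was 2.28 higher (1.75 without knockout cell 6). Just below 2 lay Med23 at 1.88. Of the 15 higher members, 9 stayed at 2 or more whichever cell was left out: Taf2, Taf1, Taf1a, Taf1d, Med15, Med27, Med13, Med31 and Med13l. Among gene-rich cells 7 of the 15 were at 2 or more, with cells of 31 and 32 days only 7, and by summed counts 3 (Taf2 at 5.65, Taf1a at 3.42 and Med31 at 2.16). Taf2, chosen for its stable difference here, and Med31 met all 3 of these settings, as did Med28 and Taf13 on the lower side. How many of all genes past 2 stayed so in these settings, or with each cell left out, was not computed. The counts of members that stayed therefore show nothing particular to the members.

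**Figure D4:**
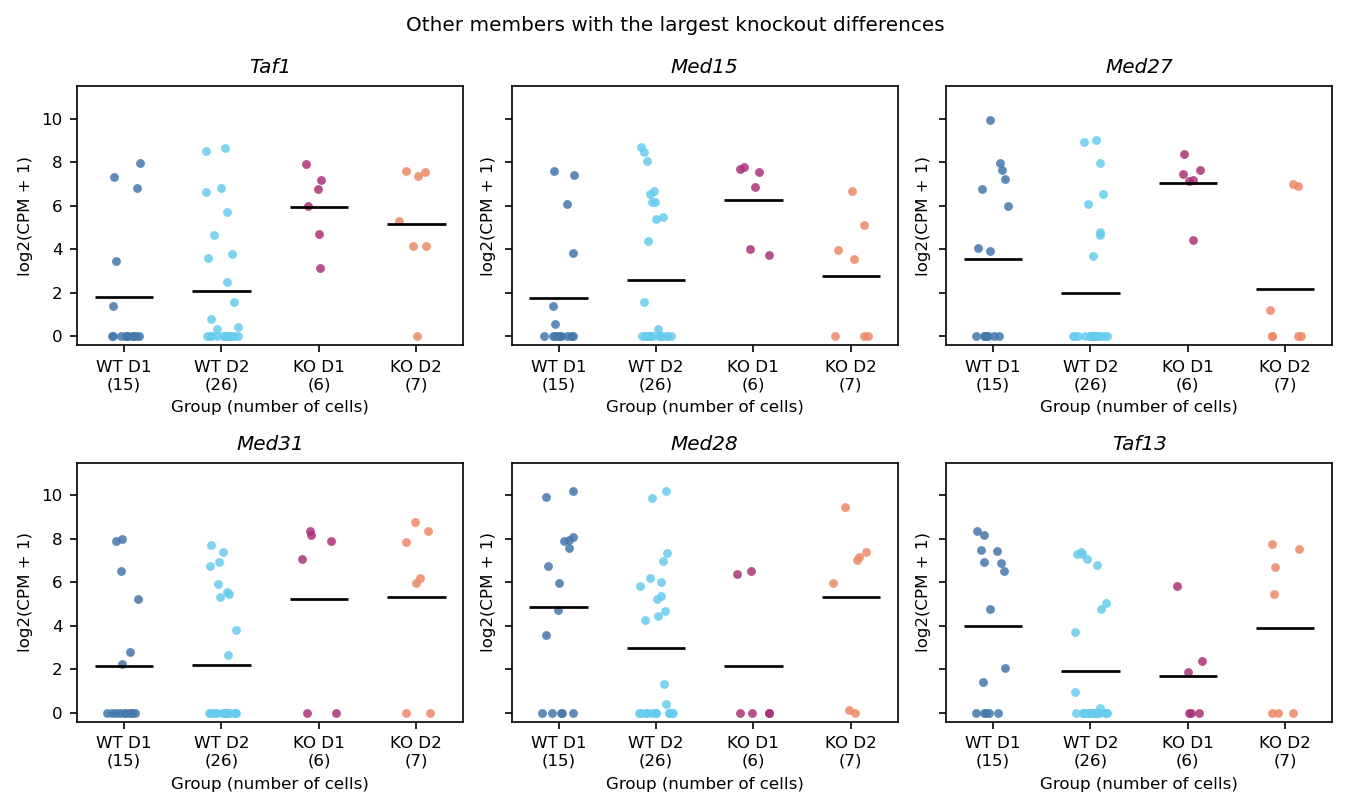
Level of 6 members in each cell as log2(CPM + 1), by group (number of cells in brackets), with black lines at group means and the same vertical axis in all panels. Taf1, Med15 and Med27 have reads in all 6 knockout D1 cells, while Med28 and Taf13 are at 0 in 4 and 3 of them; every panel shows overlap between groups.

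In D2 cells the knockout differences of the members were smaller and in their majority also above 0. The members' median was 0.51 (all genes 0.56), with 32 of 50 above 0, where 68.5% of all genes were. At least 2 higher were 5 members, where 12.7% of all genes were, and 0 members were at least 2 lower, where 0.633% were. Among gene-rich cells the median turned to -0.48 (all genes -0.39), with 3 members higher and 7 lower, where 4.21% and 12.1% of all genes were. The sign of the members' median therefore depends on the cells with few genes, as does that of all genes.

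Med31 (3.10) and Taf1 (3.09) led. Med31 had a median of 73.0 CPM with reads in 5 of 7 knockout D2 cells, and a median of 0 with reads in 10 of 26 wild-type D2 cells. Taf1 had reads in 6 of 7 knockout and 13 of 26 wild-type D2 cells, at medians of 38.6 and 0.13 CPM, and the highest value, 406 CPM, was in a wild-type cell. Med29 was 2.82 higher, with a median of 24.9 CPM and reads in 6 of 7 knockout cells. Med28 and Taf9b, the paralog of Taf9, were both 2.30 higher, but 1.61 and 1.46 without knockout cells 2 and 4. Taf13 was next at 1.97. Among gene-rich cells Taf1 (2.09), Med28 (2.04) and Taf9b (3.11) remained past 2, while Med31 had 1.77 and Med29 1.68. By summed counts Med29 (2.05) alone was past 2, and Taf1 had 0.42, from 78.2 against 58.4 CPM.

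The lowest in D2 cells were Taf7 (-1.88), Taf2 (-1.19) and Med16 of the tail (-1.16). Taf7 was read in 8 of 26 wild-type D2 cells, up to 986 CPM, and in 0 of 7 knockout D2 cells (upper limit 41% of cells). In summed counts the wild-type level was 785 times a floor of 3 counts over the knockout group. It was 232 times that floor without wild-type D2 cell 22, which held 3836 of the 5356 counts. These ratios cover pooled counts only. With 0 of 7 cells read, they do not bound the fold between the groups. The wild-type median was 0. Med18 of the head module was likewise read in 0 knockout cells of either kind, but in only 5 wild-type cells, and Taf4b in 0 knockout D1 cells. With knockout D2 cell 5 left out, the number of members past 2 was 13 in place of 5, and without cell 7 it was 9. The share of all genes past 2 also rose when either cell was left out.

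**Figure D5:**
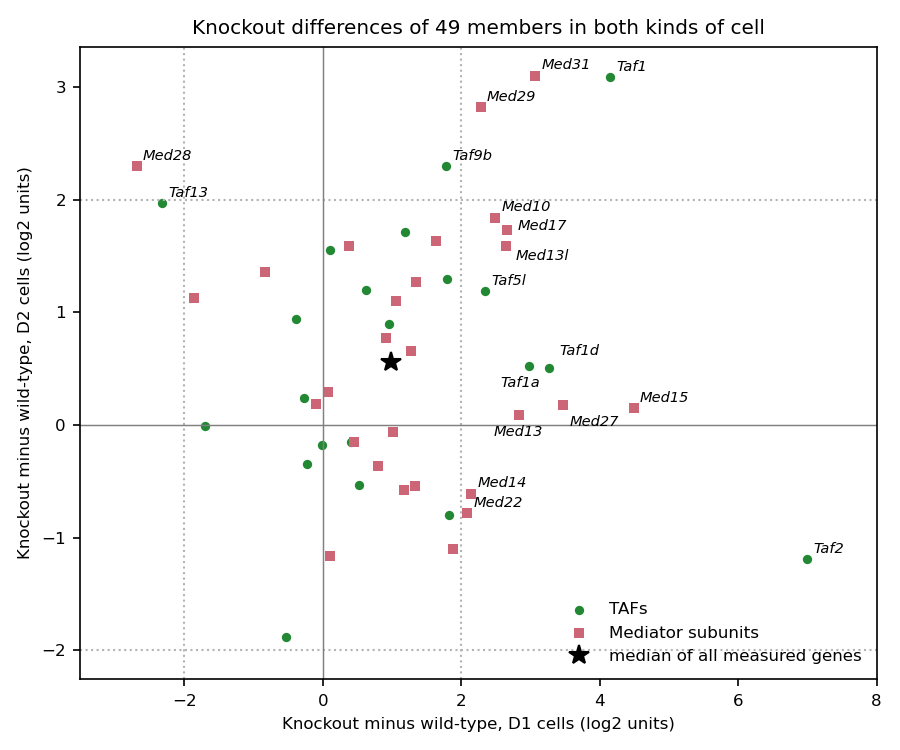
Knockout minus wild-type difference of mean log2(CPM + 1) in D2 cells (vertical) against D1 cells (horizontal) for the 49 members measured in both; circles are Taf genes, squares Med genes, dotted lines mark 2 log2 units and the star is the median of all measured genes (0.98 and 0.56). Taf1, Med31 and Med29 are past 2 in both kinds, Taf2 lies far right and below 0, and Med28 and Taf13 lie upper left.

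Set side by side, 25 of the 49 members measured in both kinds were higher in the knockout in both. Another 13 were higher in D1 and lower in D2 cells, 7 lower in D1 and higher in D2, and 4 lower in both. Of all measured genes 74.7% were above 0 in D1 and 68.5% in D2 cells, and 27.6% and 12.7% were at least 2 higher. The share of all genes higher in both was not computed, so these counts show nothing particular to the members. Past 2 in both were Taf1, Med31 and Med29. Among gene-rich cells only Taf1 of these was past 2 in both (3.11 and 2.09), since Med31 had 1.77 and Med29 1.68 in D2 cells. By summed counts none of the 3 was: Taf1 had 0.52 and 0.42, Med31 2.16 and 1.10, and Med29 0.34 and 2.05. Med28 stood at -2.69 (D1) and 2.30 (D2), and Taf13 at -2.32 and 1.97. Med15, Med27 and Med13 were past 2 in D1 cells and at 0.15, 0.18 and 0.09 in D2 cells. Whether any of these knockout differences differs between D1 and D2 cells was not tested.

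Between the knockout groups, which share their cells with the comparisons above, 7 members were at least 2 higher in D1 cells, where 15.2% of all genes were. They were Taf2 (6.30), Med27 (4.88), Med15 (3.51), Taf1d (2.89), Med13 (2.65), Taf4a (2.54) and Med22 (2.33). Med27 was read in all 6 of the D1 and in 3 of the 7 D2 cells, with medians of 159 and 0 CPM. Lower were 3 members, Med28 (-3.15), Med9 (-2.77) and Taf13 (-2.22), where 6.80% of all genes were. Med28 was read in 2 of the 6 D1 and in 6 of the 7 D2 cells, and its D2 median was 128 CPM. Leaving out a single cell brought Taf4a to 1.73 (D1 cell 5), Med22 to 1.38 (D1 cell 6) and Taf13 to -1.58 (D2 cell 3), and by summed counts Med13 had 1.26. With 29 of 50 members above 0, where 57.7% of all genes were, the members' median was 0.39 (all genes 0.29). Among gene-rich cells it was -0.13, with 7 higher and 6 lower, where 12% and 10.5% of all genes were. Over all cells it turned to -0.11 without D1 cell 2. Leaving out D2 cell 5, the only knockout cell that was not gene-rich, is the same comparison as that among gene-rich cells.

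Over all cells, the members differed little between wild-type D1 and D2 cells. Their median was -0.29 (all genes -0.14), and 16 of 51 were above 0, where 43% of all genes were. Only Taf13 (2.06) was at least 2 higher in D1 cells, where 1.01% of all genes were, and only Med24 (-2.11) at least 2 lower, where 1.33% were. Taf13 had a median of 26.0 CPM with reads in 10 of 15 D1 cells, and a median of 0 with reads in 10 of 26 D2 cells. Med24, a tail subunit, had reads in 8 of 15 and 18 of 26 cells, at medians of 0.319 and 75.8 CPM. Next were Med28 (1.84) and Med27 (1.58) above, and Taf2 (-1.89) and Med21 (-1.68) below. Neither Taf13 nor Med24 stayed past 2 whichever cell was left out, and the count ranged from 0 to 3. Among gene-rich cells the members' median was -0.69 (all genes -0.50), with -1.24 for Med genes and -0.48 for Taf genes. There 11 members were at least 2 lower in D1 cells and 0 higher, where 12% and 2.53% of all genes were. Taf13 was at 1.49 and Med24 at -2.06. By summed counts these 2 had 1.17 and -0.38. The 11 included Taf2 (-3.69, with the D1 values that entered its choice), Med14 (-3.66) and Med23 (-3.05).

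Wild-type cells of both kinds were available at 29, 30, 31 and 34 days, so that each age adds other animals. The members' median D1 minus D2 difference was -0.48, -0.35, 1.00 and -0.27 in that order (all genes -0.86, 0.00, 1.35 and 0.00). Med28 was higher in D1 cells at each of these ages, by 1.01, 3.08, 3.41 and 3.26, and it was the only such member, where 3.75% of all genes were. Taf2 was lower at each, at -3.27, -0.79, -1.04 and -1.73, as were Med21, Med26 and Taf1a, where 3.67% of all genes were. For Taf2 the low wild-type D1 values entered its choice, so nothing is read from its order here. Group sizes at these ages were 4 against 6, 3 against 7, 3 against 3, and 2 against 2 cells.

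Paralog pairs differed in how often both were read in the same cell. Taf4a and Taf4b shared 0 cells, as did Taf7 and Taf7l, and Taf9 and Taf9b shared 10 cells of 35 and 13. Med12 and Med12l shared 9 cells of 12 and 26, while Med13 and Med13l shared 26 of 30 and 36. Taf5 and Taf5l shared 16 of 41 and 17 cells, and Taf6 and Taf6l 14 of 25 and 21. Per kilobase of exon, mean levels were 7.50 ± 15.3 CPM per kb for Med13 and 4.33 ± 7.17 for Med13l, a difference within the spread between cells. Taf9 at 39.7 ± 43.3 stood beside Taf9b at 10.5 ± 35.8, with the reservation about Ak6 above.

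Genes that work with these complexes, none of them members, were described from lists by function. In D1 cells 1 of 3 kinase module partners, 4 of 19 measured general factors, 3 of 13 RNA polymerase II subunits and 6 of 14 SAGA subunits were at least 2 higher in the knockout, beside the 27.6% of all genes. The largest were Cdk8, the Mediator kinase (3.56), Mnat1, a TFIIH assembly factor (3.39), Polr2a, the largest polymerase subunit (3.17), and Kat2a, a histone acetyltransferase of SAGA (3.34). Polr2l, a small polymerase subunit, was 1 of 13 at least 2 lower (-2.80). Among gene-rich cells 1 gene of each list was at least 2 higher, with 1 kinase module partner, 1 general factor and 2 polymerase subunits at least 2 lower. In D2 cells the counts were 1 of 3, 4 of 19, 4 of 13 and 5 of 16 beside 12.7%, led by Ccnc, the cyclin of the kinase module (2.09), Gtf2h1 of TFIIH (3.93), Polr2c (3.47) and Sf3b5 (3.85). The lowest of their lists in D2 cells were Polr2a (-0.67), Supt20 of SAGA (-1.44) and Gtf2h3 of TFIIH (-0.46). Among gene-rich cells 0 kinase module partners, 0 general factors, 2 polymerase subunits and 2 SAGA subunits were at least 2 higher in D2 cells, and 1 SAGA subunit lower. Between the knockout groups, Cdk8 (3.45), Polr2a (3.31) and Supt20 (3.51) were higher in D1 cells, and Ccnc (-2.53), Polr2l (-3.84), Gtf2h1 (-4.37) and Tada3 of SAGA (-3.28) lower. These genes were named as the extremes of their lists. Nothing is therefore read from Cdk8 and its cyclin gene Ccnc, or Polr2a and Polr2l, lying on opposite sides. Between wild-type D1 and D2 cells none of the 4 lists held a gene past 2, and the extremes were Polr2c (1.92) and Kat2a (-1.37). Among gene-rich cells 4 of 16 SAGA subunits were at least 2 lower in D1 cells, where 12% of all genes were. The other lists held none past 2 there.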

How the data were processed

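Libraries came from the cytosol of single neurons (Nextera XT, per the labels' protocols). The submitters' processing notes name GRCm38, Trimmomatic, STAR and featureCounts, and the sources used here do not give their roles, versions, settings or use of strand. The deposited tables hold whole-number read counts per gene, by symbol (22800) and by Ensembl identifier (22880, with identical counts for all 53 members). A normalized signal table (14067 symbols) that the authors deposited was found to hold the counts times 1 factor per cell (0.373 to 51.5). Each table held 2 columns that match no sample and were not used.

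CPM were computed from the counts with each cell's total over genes. Differences are between group means of log2(CPM + 1), a pseudocount of 1, which understates differences of low genes. A gene was measured if its mean over the cells compared was at least 1 CPM and at least 10% of them held a read. A difference of at least 2 log2 units was the threshold for counts, and no p-value was computed, each group being treated as 1 sample. The members, gene lists and rules were chosen with earlier results of these data known. Named genes were Taf2, the members past 2, the 3 highest and 3 lowest per comparison, the 5 most often read, paralog pairs and the extremes of each list of other genes; Med24, Med16 and others that fall under several of these count under each. The remaining members just inside or outside the threshold, Med21, Med26 and the least often read were named after their values were seen. Shares carry exact Clopper-Pearson intervals at 95%, which cover counting error only. Where a group had no read, ratios use a floor of 3 counts over that group, which leaves out the spread between cells.

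Alternatives were edgeR's TMM scaling, the authors' normalized values, totals without mitochondrial and 18S genes, a pseudocount of 10, no filter, gene-rich cells, counts thinned to 260000 per cell, summed counts, the Ensembl table, age subsets, and each cell left out. Exons and overlaps came from GENCODE vM21 and promoters from RefSeq GRCm38.p6. Python 3.11.15, numpy 2.4.6, pandas 2.3.3, scipy 1.17.1, matplotlib 3.10.9, R 4.3.3 and edgeR 4.0.16 were used. The procedure was also tried on simulated data. The genes changed there were read in more cells than most members, so members with many zeros were not covered.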

Additional observations from a re-analysis of the deposited data

Results flagged for a closer look

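In the groups of 6 and 7 knockout cells, the highest or lowest cell was tested for a gap to the nearest other cell that takes up an unusually large part of the group's range. Of 46 such series 6 held such a cell. The cut-off gives about 1 in 20 by chance only for normally distributed values. These series hold many zeros and are mostly of members past 2, so no chance rate applies to the 6. A group with reads in a single cell is always flagged, as for Med9 and Taf4a. In knockout D1 cells these were Med13 in cell 3, at 0.00 log2(CPM + 1) where the other cells had reads, Med27 in cell 4 at 4.44, below the others, and Med9 in cell 2 at 2.13, the only cell of its group with reads. In knockout D2 cells they were Med22 in cell 1 at 7.93, Taf2 in cell 3 at 5.30 and Taf4a in cell 6 at 2.77, each above the other cells of its group.

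The 1 knockout D1 cell labelled as failing quality control, with 950010 counts over 995 genes, was used in no comparison. It had reads of 5 members, and 2 of them exceeded every wild-type cell. Taf2 stood at 895 CPM, from 850 counts, and Taf1d at 400 CPM. By counts Taf2 ranked 122 among the genes of this cell. How many of all genes exceeded every wild-type cell there was not computed. Few genes take up all counts of this cell, so nothing is read from these values.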

How the results depend on the processing

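Taf2 in D1 cells kept its direction and stayed past 2 in every alternative run (lowest 4.06, with a pseudocount of 10). Because Taf2 was chosen for its large stable difference there, this describes the choice and supports nothing further. TMM scaling, totals without mitochondrial and 18S genes, no filter and the Ensembl table moved none of the medians or counts below beyond their limits. In D1 cells the members' median knockout difference of 1.18 was 0.52 with a pseudocount of 10, 0.31 in gene-rich cells, 0.00 by summed counts and 0.36 with cells of 31 and 32 days only, and their number past 2 (17) was 4 with a pseudocount of 10 and 11 in gene-rich cells. For all genes the median of 0.98 was 0.46, 0.14, -0.04 and 0.35 in the same order. Their share past 2, 29.0%, was 7.38% and 20.2%. In D2 cells the median of 0.51 reversed to -0.48 in gene-rich cells and -0.68 by summed counts, and the 5 members past 2 became 12 with the authors' normalized values, 0 with a pseudocount of 10, 10 in gene-rich cells, 11 by summed counts and 11 with 31 and 32 days only. In each of these settings the share of all genes past 2 moved in the same direction as the count. These D2 counts therefore show nothing particular to the members. For knockout D1 against D2 cells the median of 0.39 reversed to -0.13 in gene-rich cells, and the 10 members past 2 became 3 with a pseudocount of 10 and 16 by summed counts. The share of all genes past 2 likewise fell with a pseudocount of 10 and rose by summed counts. For wild-type D1 against D2 cells the 2 members past 2 became 7 with the authors' normalized values, 0 with a pseudocount of 10, 11 in gene-rich cells, 1 with thinned counts and 9 by summed counts. The share of all genes past 2, 2.34%, became 7.27%, 0.109%, 14.5%, 2.71% and 15.9% in the same order. Med13l in D1 cells reversed to -0.33 by summed counts and Med14 to -3.38 with 31 and 32 days only. The causes were not tested.

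With each cell left out in turn, the median ranged from -0.46 to -0.18 and the count from 0 to 3 for wild-type D1 against D2 cells. For the knockout in D1 cells these ranges were 0.82 to 1.35 and 15 to 20, and in D2 cells 0.29 to 0.89 and 5 to 13. For knockout D1 against D2 cells they were -0.13 to 0.52 and 9 to 14, with the median at -0.11 without D1 cell 2 and -0.13 without D2 cell 5. No paired analysis was possible because the labels give no replicate numbers and name no animal. Depth limits members near 1 CPM, and genotype cannot be told apart from the animals used.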
